A study of Mus musculus with 20 samples.

Results

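The genes coded by the mouse mitochondrial genome were followed in microglia and astrocytes sorted from the injured side of the brain. They were taken as every row of the gene count table whose symbol starts with mt-, which gave 37 of 39017 rows: 13 protein genes, 2 rRNA genes and 22 tRNA genes. Of the protein genes, 7 code for subunits of complex I (mt-Nd1 to mt-Nd6 and mt-Nd4l), mt-Cytb for a subunit of complex III, 3 for complex IV (mt-Co1 to mt-Co3) and 2 for ATP synthase (mt-Atp6 and mt-Atp8).

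Total RNA was sequenced from 5 sham and 5 FPI libraries of each cell type, 20 in all, each from a single animal. All mice were adult C57BL/6 males (C57BL/6J in the study's methods) with a craniectomy over the left parietal cortex. FPI mice then received a lateral fluid percussion injury, a brief pulse of fluid against the exposed dura, and sham mice were connected to the device without a pulse. At 7 days the ipsilateral forebrain was dissociated with papain, cleared of myelin and sorted by flow cytometry into microglia (CD11b+, intermediate CD45) and astrocytes (ACSA-2+). By the library names both cell types were sequenced from 3 of the animals (2 sham, 1 FPI), and FPI astrocyte libraries 2 and 5 carry the same animal number. The name of FPI astrocyte library 5 also ends in the letter used for microglia, while its labels call it astrocytes, and its markers summed to 142 CPM for microglia, the highest of the astrocyte libraries, and 15010.5 CPM for astrocytes. P-values therefore measure the spread between these libraries, and in such bulk samples fewer cells of a type and less RNA per cell cannot be told apart.

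Mitochondria keep a small circular genome that codes for core subunits of the respiratory chain and for the rRNAs and tRNAs needed to translate them, while every other mitochondrial protein comes from the nucleus. Both strands are transcribed along nearly the whole circle into long precursors, which are cut mostly at the tRNAs that lie between the other genes. The heavy strand codes for both rRNAs and most mRNAs, and the light strand for mt-Nd6 and a minority of the tRNAs, so the level of each mature RNA depends on processing and decay as well as on transcription.

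Library totals ran from 5623349 to 13110857 counts on genes, with a mean of 8.51 ± 1.64 M (SD, n = 20). Sums over 8 microglia markers were 15557 to 26576 CPM in microglia and 31.4 to 142 CPM in astrocytes, and sums over 8 astrocyte markers were 9515 to 30917 CPM in astrocytes and 246 to 593 CPM in microglia. No marker of the labelled cell type was at 0 in its own libraries. CPM here are counts scaled to a common total of 1e6 per library after TMM scaling within its cell type. Markers of oligodendrocytes summed to 1524 to 17799 CPM in the astrocyte libraries.

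The share of counts on the 37 genes was 9.50% over all libraries, or 16172620 of 170231963 counts. The rRNA genes held most of it: mt-Rnr2, the 16S rRNA, took 65.1% of the mitochondrial counts and mt-Rnr1, the 12S rRNA, 26.1%, and the 13 protein genes took 8.80%. The library kit removes cDNA of ribosomal origin before amplification, so the rRNA levels are those left after that step. The tRNA genes together had 3385 counts. Counting error gave the share of any library a 95% Wilson interval of at most 0.0262 percentage points to either side, which covers counting error only.

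The protein genes fell into separate ranges of coverage that followed their place in the genome. A stretch of 4653 bases of the mitochondrial genome, chrM:6390-11042 in GRCm38, has a nuclear copy on the minus strand of chromosome 1, chr1:24611535-24616188, which the annotation splits into 7 pseudogenes at least 99.7% identical to the mitochondrial genes. The stretch was taken from the first to the last matched base. The 6 protein genes that lie wholly inside this stretch, mt-Co2, mt-Atp8, mt-Atp6, mt-Co3, mt-Nd3 and mt-Nd4l, had 1.40 to 10.9 counts per base over the 20 libraries. mt-Atp8 lies inside it by position, but only 43 of its 204 bases matched a near-identical pseudogene. The 5 protein genes wholly outside it, mt-Nd1, mt-Nd2, mt-Nd5, mt-Nd6 and mt-Cytb, had 60.2 to 244 counts per base. The genes inside held 0.820% of the protein gene counts on 26.3% of the protein gene bases. mt-Co1, with 31.3% of its length inside, had 321 counts per base, and mt-Nd4, with 63.6% inside, had 75.98. How reads that match both places were counted is not given in the sources used here, and the part of the copy in these low counts was not tested. Levels of the 6 genes inside the copied stretch are therefore uncertain. Of the 7 pseudogenes only Gm10222, the copy of mt-Nd4l, was a row of the table, with 489 counts beside 416 on mt-Nd4l.

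**Figure D1:**
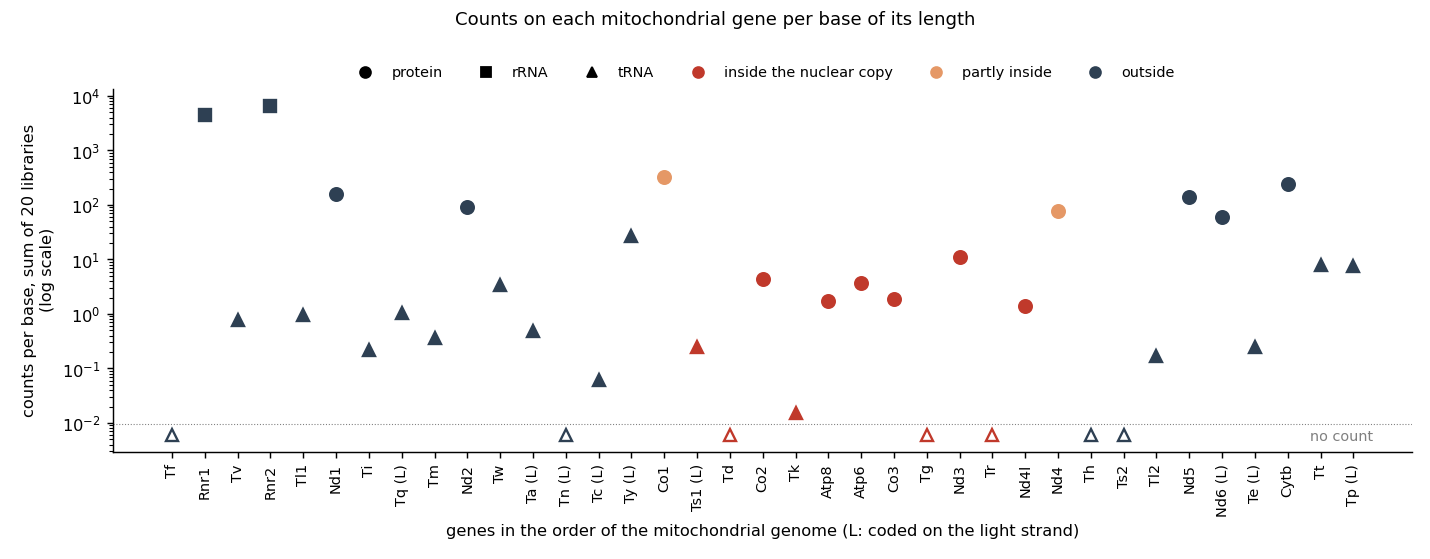
Counts on each mitochondrial gene per base of its length, summed over 20 libraries (log axis), with genes in genome order; circles are protein genes, squares rRNA genes and triangles tRNA genes, colours give the place relative to the nuclear copy, and open symbols had no count. The 6 protein genes inside the copy lie between 1.40 and 10.9 counts per base and the 5 outside between 60.2 and 244.

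The near identity of the copy can be seen in the sequence, shown here for the only matched pseudogene stretches that differ by a base. Bases between these stretches, tRNA genes among them, were not compared. Positions in the copy shift between the matched parts of mt-Nd3 and mt-Nd4l, so the copy also differs in length there. Positions are counted from 1 at the 5′ end of the mitochondrial gene, capitals mark the base that differs, and sequences are from GENCODE M21 transcripts on GRCm38. In mt-Co1 the matched 483 bases differ at 1 position (A1066T), and in mt-Nd3 the matched 345 bases differ at 1 position (T3C).
mt-Co1, chrM:6390-6449, plus strand: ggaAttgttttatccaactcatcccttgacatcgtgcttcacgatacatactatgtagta
Gm29216, chr1:24616129-24616188, minus strand: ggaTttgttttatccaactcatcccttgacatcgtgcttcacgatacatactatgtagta
mt-Nd3, chrM:9459-9518, plus strand: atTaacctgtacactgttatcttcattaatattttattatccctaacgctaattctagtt
Gm28438, chr1:24613060-24613119, minus strand: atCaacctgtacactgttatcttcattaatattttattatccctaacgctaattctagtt

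Mitochondrial genes lie so close together that several share bases, which limits what a count on one of them can mean. The last 43 bases of mt-Atp8 are also the start of mt-Atp6 on the same strand (capitals). The last 14 bases of mt-Nd5 and of mt-Nd6 are the same positions read on opposite strands (capitals). The counting is not stated to use strand, so reads of a gene and of RNA antisense to it cannot be told apart.
mt-Atp8, chrM:7910-7969, plus strand: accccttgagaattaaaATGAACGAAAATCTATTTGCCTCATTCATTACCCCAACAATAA
mt-Nd5, chrM:13536-13565, plus strand: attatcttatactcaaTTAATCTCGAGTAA
mt-Nd6, chrM:13552-13581, minus strand: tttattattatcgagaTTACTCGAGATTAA

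The tRNA genes, 59 to 75 bases long, were sparsely covered. Only mt-Tw, mt-Ty, mt-Tt and mt-Tp had a count in all 20 libraries, and together they held 90.5% of the tRNA counts. mt-Ty, the tyrosine tRNA, alone had 1809 counts (53.4%), or 27.0 counts per base, while mt-Tt (threonine) had 7.76, mt-Tp (proline) 7.58 and mt-Tw (tryptophan) 3.39 counts per base. No count fell on 7 tRNA genes (mt-Tf, mt-Tn, mt-Td, mt-Tg, mt-Tr, mt-Th and mt-Ts2), which allows up to 3 counts in the 170231963, or 0.0176 CPM of the unscaled total, for counting error only. The 8 light-strand tRNA genes had 2461 counts and the 14 heavy-strand genes 924. Mature tRNAs are shorter than the fragments such libraries favour, and whether the counts come from mature tRNAs or from precursors was not tested. The 3 best covered tRNAs are shown with the anticodon in capitals.
mt-Ty, chrM:5260-5326, minus strand: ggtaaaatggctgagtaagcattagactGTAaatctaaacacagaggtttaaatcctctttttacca
mt-Tt, chrM:15289-15355, plus strand: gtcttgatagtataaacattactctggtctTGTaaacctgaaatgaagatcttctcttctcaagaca
mt-Tp, chrM:15356-15422, minus strand: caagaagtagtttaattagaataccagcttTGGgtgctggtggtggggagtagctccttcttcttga

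The mitochondrial share of counts was higher in FPI than in sham microglia. It was 4.24, 5.46, 5.28, 4.89 and 5.20% in sham microglia 1 to 5, a mean of 5.01% ± 0.480 (SD, n = 5). In FPI microglia 1 to 5 it was 7.23, 8.36, 6.66, 6.62 and 5.85%, a mean of 6.94% ± 0.933 (SD, n = 5). No FPI library was as low as the highest sham library, and the means differed 1.39-fold. The rRNA genes carried most of this difference, with 4.51% ± 0.442 in sham and 6.33% ± 0.783 in FPI microglia. They also held most mitochondrial counts in each group, at 87.6 to 92.2% in sham and 89.8 to 92.9% in FPI microglia. These are levels left after the kit's removal step. The protein genes had 0.508% ± 0.112 in sham and 0.610% ± 0.159 in FPI microglia, and their ranges, 0.404 to 0.654% and 0.415 to 0.804%, overlapped.

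In astrocytes the shares of sham and FPI libraries overlapped. It was 12.1, 10.2, 12.3, 12.6 and 14.5% in sham astrocytes 1 to 5, a mean of 12.4% ± 1.52 (SD, n = 5). In FPI astrocytes 1 to 5 it was 18.1, 9.37, 12.5, 13.02 and 13.4%, a mean of 13.3% ± 3.12 (SD, n = 5). The highest and the lowest of all astrocyte shares were both in FPI libraries. The means differed 1.07-fold, and without FPI astrocyte 1 the log2 ratio of the means went from 0.10 to -0.035.

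**Figure D2:**
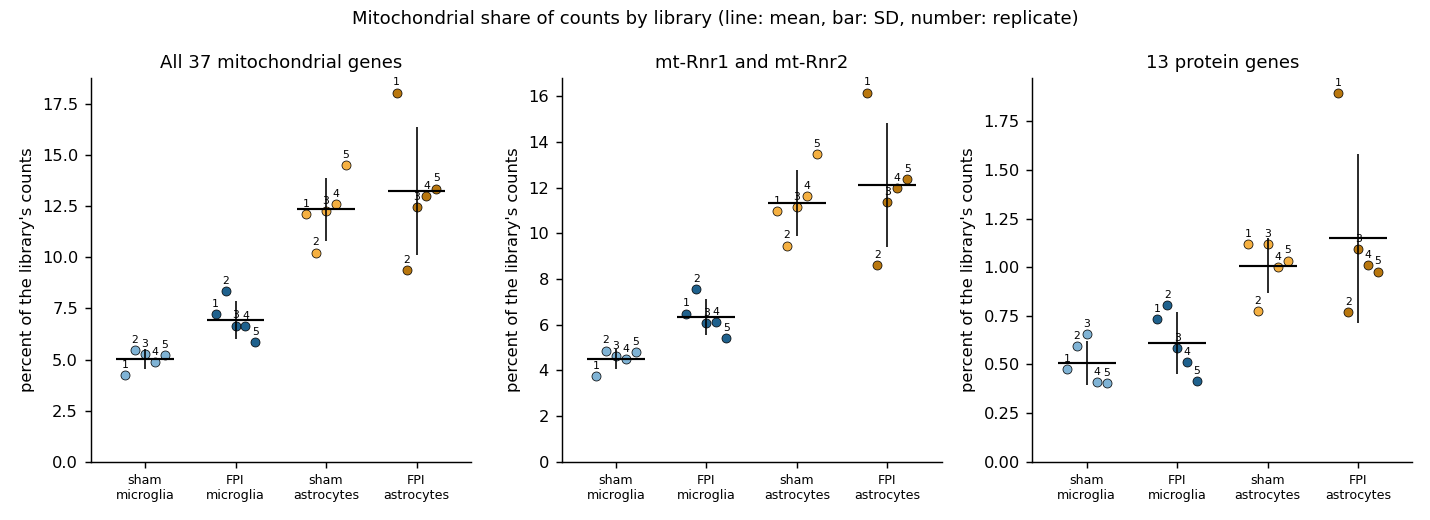
Percent of each library's counts on all 37 mitochondrial genes, on mt-Rnr1 and mt-Rnr2, and on the 13 protein genes, by group; points are libraries with their replicate number, lines means and bars SD. FPI microglia lie above sham microglia in the left panel (5.85 to 8.36% against 4.24 to 5.46%), and the sham and FPI ranges overlap in the right panel.

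The effect of FPI on single genes was tested in each cell type with edgeR's quasi-likelihood test over all genes that passed its filter on low counts. Genes with a Benjamini-Hochberg adjusted p below 0.1 and a log2FC beyond 0.6 in either direction were called. In microglia 16 mitochondrial genes passed the filter, and 3 of them were called, all higher after FPI: mt-Nd6, mt-Ty and mt-Nd3. Over all 12143 genes tested, 2.13% were called as higher. With mt-Rnr1 and mt-Rnr2, 5 of the 16 were higher at an adjusted p below 0.1, as were 2.64% of all genes. Of the 16 genes, 15 had a positive log2FC, with a median of 0.48 beside -0.01 for all genes. In 4 of the 16, mt-Rnr1, mt-Rnr2, mt-Ty and mt-Nd6, all FPI libraries exceeded all sham libraries, as they did in 2.11% of all genes tested.

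mt-Nd6 (ENSMUSG00000064368, chrM:13552-14070), the only mRNA coded by the light strand, was the most firmly called. Its level was 93.9, 127, 122, 83.8 and 107 CPM in sham microglia 1 to 5. In FPI microglia 1 to 5 it was 190.4, 274, 161, 153 and 131 CPM. The groups did not overlap, with FPI microglia 2 the highest. The log2FC was 0.77 (SE 0.17, adjusted p = 0.0225 by edgeR's quasi-likelihood test), and the call held without any library other than FPI microglia 2 (log2FC 0.57 without it). Within the protein gene counts of a library, mt-Nd6 took 1.98 to 2.43% in sham and 2.55 to 3.46% in FPI microglia, again without overlap.

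mt-Ty (ENSMUSG00000064350, chrM:5260-5326), also coded by the light strand, had the largest log2FC of the 16. It stood at 0.129, 5.59, 5.03, 2.35 and 4.47 CPM in sham microglia 1 to 5, where sham microglia 1 had 1 count. In FPI microglia 1 to 5 it stood at 11.8, 23.6, 8.12, 8.45 and 11.7 CPM. All FPI libraries were higher than all sham libraries. The log2FC was 1.85 (SE 0.52, adjusted p = 0.0837 by edgeR's quasi-likelihood test). The call rested on few counts and was lost, with the direction kept, on leaving out sham microglia 2 (log2FC 2.097), 3 (2.01), 4 (1.73) or 5 (1.92), or FPI microglia 1 (1.87), 2 (1.501) or 5 (1.87), where the adjusted p was 0.105 to 0.340. Neighbouring mt-Co1 starts 2 bases past the end of mt-Ty on the other strand.

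mt-Nd3 (ENSMUSG00000064360, chrM:9459-9806), a complex I subunit inside the copied stretch, was at 6.34, 12.95, 7.54, 12.6 and 13.8 CPM in sham microglia 1 to 5. It was at 20.9, 19.03, 12.1, 22.7 and 26.7 CPM in FPI microglia 1 to 5. FPI microglia 3 lay below 3 of the sham libraries, so the groups overlapped. The log2FC was 0.93 (SE 0.27, adjusted p = 0.0968 by edgeR's quasi-likelihood test). This call held without FPI microglia 3 (log2FC 1.07, adjusted p = 0.0294) and was lost on leaving out any other library, with a log2FC of 0.79 to 1.03 and an adjusted p of 0.102 to 0.252. Its counts are among those that a nuclear copy could share.

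Both rRNA genes had adjusted p-values below 0.1 with a log2FC short of 0.6, so they were not called. mt-Rnr2 was at 28037, 35168, 32771, 33817 and 41967 CPM in sham microglia 1 to 5 and at 53264, 59434, 44813, 52543 and 47747 CPM in FPI microglia 1 to 5. Its log2FC was 0.59 (SE 0.14, adjusted p = 0.0271 by edgeR's quasi-likelihood test), and it was called without sham microglia 5 (log2FC 0.66) or without FPI microglia 3 (0.63) or 5 (0.61). mt-Rnr1 was at 9429 to 10487 CPM in sham and 11521 to 15168 CPM in FPI microglia. Its log2FC was 0.40 (SE 0.12, adjusted p = 0.0993 by edgeR's quasi-likelihood test). All 5 FPI libraries exceeded all 5 sham libraries for both genes.

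None of the remaining mRNAs was called in microglia. mt-Co1, the catalytic core of complex IV, had a log2FC of 0.49 (SE 0.15) in microglia with an adjusted p of 0.125 in edgeR's test, and its share of the protein gene counts was 29.8 to 33.4% in sham and 33.1 to 36.3% in FPI microglia. The 4 heavy-strand mRNAs without a near-identical copy were at log2FC 0.28 (mt-Nd1), 0.26 (mt-Cytb), 0.16 (mt-Nd5) and 0.10 (mt-Nd2). mt-Nd4, partly copied, was at 0.27. The other copied genes ran from -0.17 (mt-Nd4l) through 0.48 (mt-Co2) and 0.77 (mt-Atp6) to 0.90 (mt-Co3), all with overlapping groups. mt-Atp8, also inside the stretch, did not pass the filter in microglia. It was at 0.389 to 3.18 CPM in sham and 0.135 to 2.11 CPM in FPI microglia, with overlap. For mt-Co3 the value depended on FPI microglia 4, at 19.7 CPM against 4.18 to 5.71 CPM in the other FPI libraries, and was 0.25 without it.

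Among the other tRNAs, mt-Tt had a log2FC of 0.71 (SE 0.51) in microglia and was not called. mt-Tp, coded by the light strand, did not pass the filter in microglia. It was at 0.259, 1.13, 0.457, 0.224 and 0.583 CPM in sham microglia 1 to 5 and at 4.49, 1.24, 2.35, 0.939 and 2.02 CPM in FPI microglia 1 to 5, so 4 of the FPI libraries lay above all sham libraries. Taken as a sum with mt-Ty included, tRNA counts per 1000 protein gene counts were 0.818 to 2.33 in sham and 2.35 to 4.38 in FPI microglia, without overlap. In sham and FPI astrocytes they were 1.24 to 3.28 and 1.498 to 3.83. The part of mt-Ty went from 1 of 30 tRNA counts in sham microglia 1 to 190 of 243 in FPI microglia 2. The sum therefore does not speak for the other tRNAs. Unscaled counts on heavy-strand tRNA genes were 24 to 48 in sham and 21 to 77 in FPI microglia, with overlap.

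**Figure D3:**
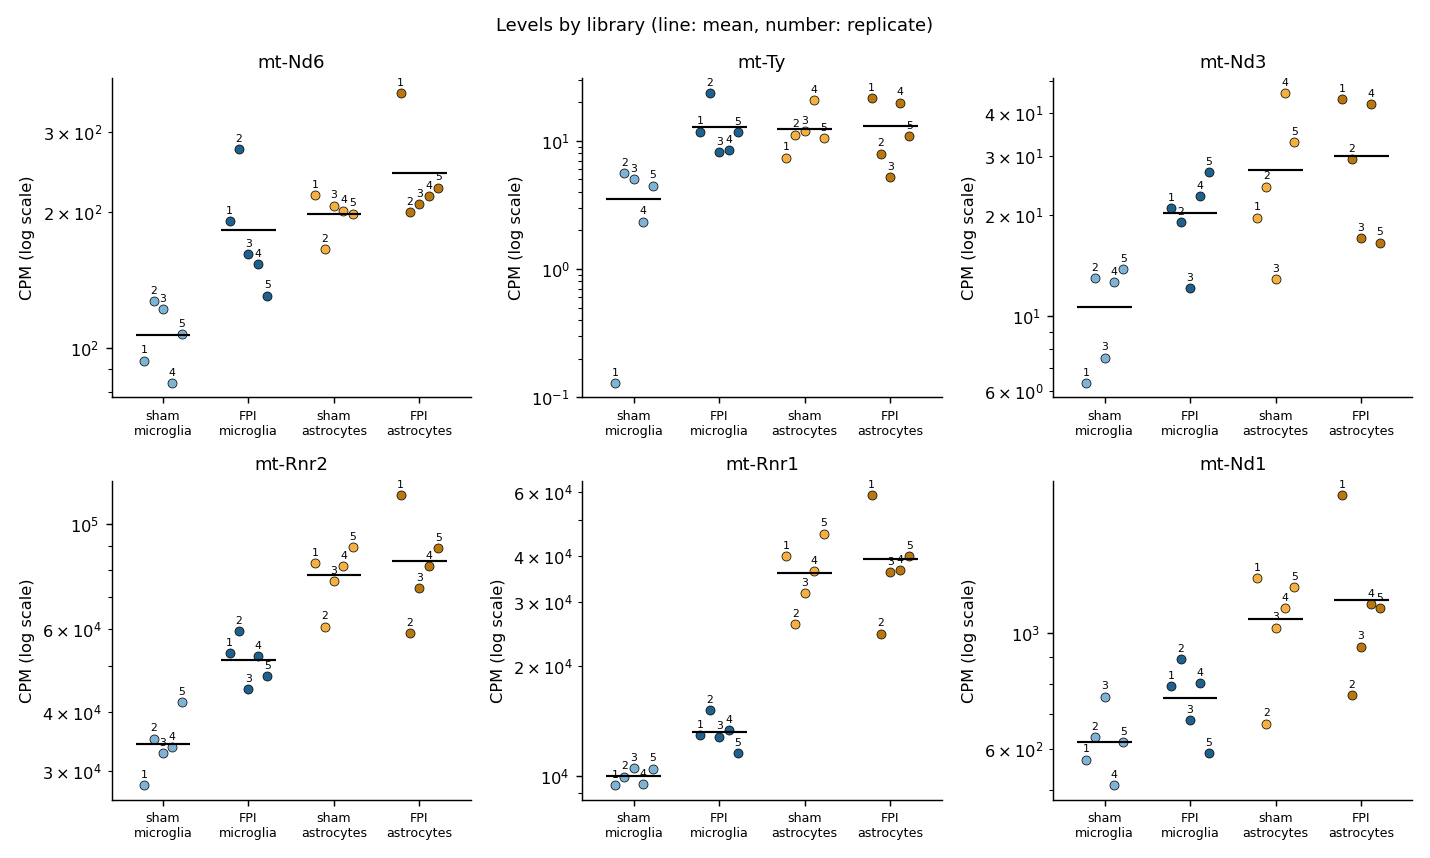
Levels by library in CPM (log axes, each panel its own range, scaled within a cell type) of mt-Nd6, mt-Ty, mt-Nd3, mt-Rnr2, mt-Rnr1 and mt-Nd1; points carry the replicate number and lines are means. Sham and FPI microglia do not overlap for mt-Nd6, mt-Ty, mt-Rnr2 and mt-Rnr1 and overlap for mt-Nd3 and mt-Nd1, and FPI astrocyte 1 is the highest astrocyte library for mt-Nd6, mt-Ty, mt-Rnr2, mt-Rnr1 and mt-Nd1.

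The count of called mitochondrial genes in microglia depended on single libraries, as did the count over all genes. The mitochondrial count was 0 without FPI microglia 2, 1 without sham microglia 2, 3 or 4 or without FPI microglia 1, and 4 without FPI microglia 3, which adds mt-Rnr2. Over all genes, 285 of 12143 were called with no library left out. Without FPI microglia 1, 2 or 3 these were 250 of 12396, 177 of 12345 and 423 of 12331. Without sham microglia 2, 3 or 4 they were 177 of 12400, 196 of 12407 and 243 of 12374. FPI microglia 2 was the highest of its group for 13 of the 16 genes and FPI microglia 5 the lowest for 9. The library names of microglia form a pair of series, with replicates 4 and 5 of each condition in the second, and what the series stand for is not given. The log2 ratio of mean shares was 0.57 in replicates 1 to 3 and 0.31 in replicates 4 and 5. The FPI libraries exceeded the sham libraries within both series for 5 of the 16 genes (mt-Rnr1, mt-Rnr2, mt-Ty, mt-Nd6 and mt-Co1), as they did in 3.39% of all genes tested. A term for the series left 3 mitochondrial genes called, beside 313 of all 12143 genes. When all 20 libraries were fitted together, 0 of 19 mitochondrial genes were called, beside 121 of all 15077 genes. In that fit edgeR's adjusted p was 0.112 for mt-Nd6, 0.172 for mt-Ty and 0.325 for mt-Nd3.

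Summed markers of astrocytes, oligodendrocytes, their precursors and red blood cells had higher means in FPI than in sham microglia. Those of microglia, monocytes and border macrophages, endothelium and neurons had lower means. Precursor markers summed to 4.69 to 7.97 CPM in sham and 5.26 to 23.6 CPM in FPI microglia, and red blood cell markers to 0 to 2.97 and 0 to 20.1 CPM. The sum over 8 oligodendrocyte markers was 104 to 160.0 CPM in sham and 161 to 262 CPM in FPI microglia. The sum over 8 astrocyte markers was 246 to 351 CPM in sham and 301 to 593 CPM in FPI microglia, or 1.503% and 2.24% of the level in the sorted astrocytes. Gfap (log2FC 2.78) was called of 8 astrocyte markers tested and Cspg4 (log2FC 2.29) of 2 markers of oligodendrocyte precursors, the last not without sham microglia 2 (2.22) or FPI microglia 1 (1.76). The other precursor marker tested, Pdgfra, had a log2FC of -1.66 and was not called. Markers of monocytes and border macrophages summed to 21.4 to 449 CPM in sham and 22.8 to 266 CPM in FPI microglia, those of endothelium to 53.8 to 86.1 and 59.3 to 82.6 CPM, and those of neurons to 3.08 to 9.70 and 2.59 to 11.2 CPM. In each microglia group 1 marker of monocytes and border macrophages had no count in any library. The same held for 1 neuron marker in FPI microglia and 2 red blood cell markers in sham microglia. The part of other cells in the mitochondrial differences was not tested.

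In astrocytes no mitochondrial gene was called after FPI. Of 18 genes tested, 0 had an unadjusted p below 0.05 in edgeR's test, beside 319 of all 13741 genes. DESeq2 called 0 mitochondrial genes, and in 0 of the 18 did FPI and sham libraries fall apart without overlap. Over all 13741 genes tested, 0.00728% were called, which is 1 gene, and in 0.488% all FPI libraries exceeded all sham libraries. The log2FC of the 18 genes ran from -0.30 (mt-Tt) to 0.64 (mt-Atp8), with a median of 0.16 beside -0.01 for all genes. The median was -0.10 without FPI astrocyte 1, which was the highest of its group for 16 of the 18 genes, and FPI astrocyte 2 was the lowest for 14. Without FPI astrocyte 5, whose name goes against its label, the median was 0.22 and 0 mitochondrial genes were called by edgeR's test.

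The genes called in microglia had log2FC of 0.09 to 0.30 in astrocytes. mt-Nd6 was at 218, 165, 206, 201 and 198 CPM in sham astrocytes 1 to 5 and at 366, 199.6, 208, 217 and 226 CPM in FPI astrocytes 1 to 5 (log2FC 0.30, SE 0.19). mt-Ty was at 7.40, 11.2, 11.8, 20.8 and 10.4 CPM in sham and at 21.6, 7.93, 5.24, 19.9 and 10.9 CPM in FPI astrocytes 1 to 5 (log2FC 0.09, SE 0.39). The sham and FPI ranges overlapped for both. mt-Nd3 had a log2FC of 0.14 (SE 0.37), mt-Rnr2 of 0.10 (SE 0.39) and mt-Rnr1 of 0.12 (SE 0.36) in astrocytes.

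**Figure D4:**
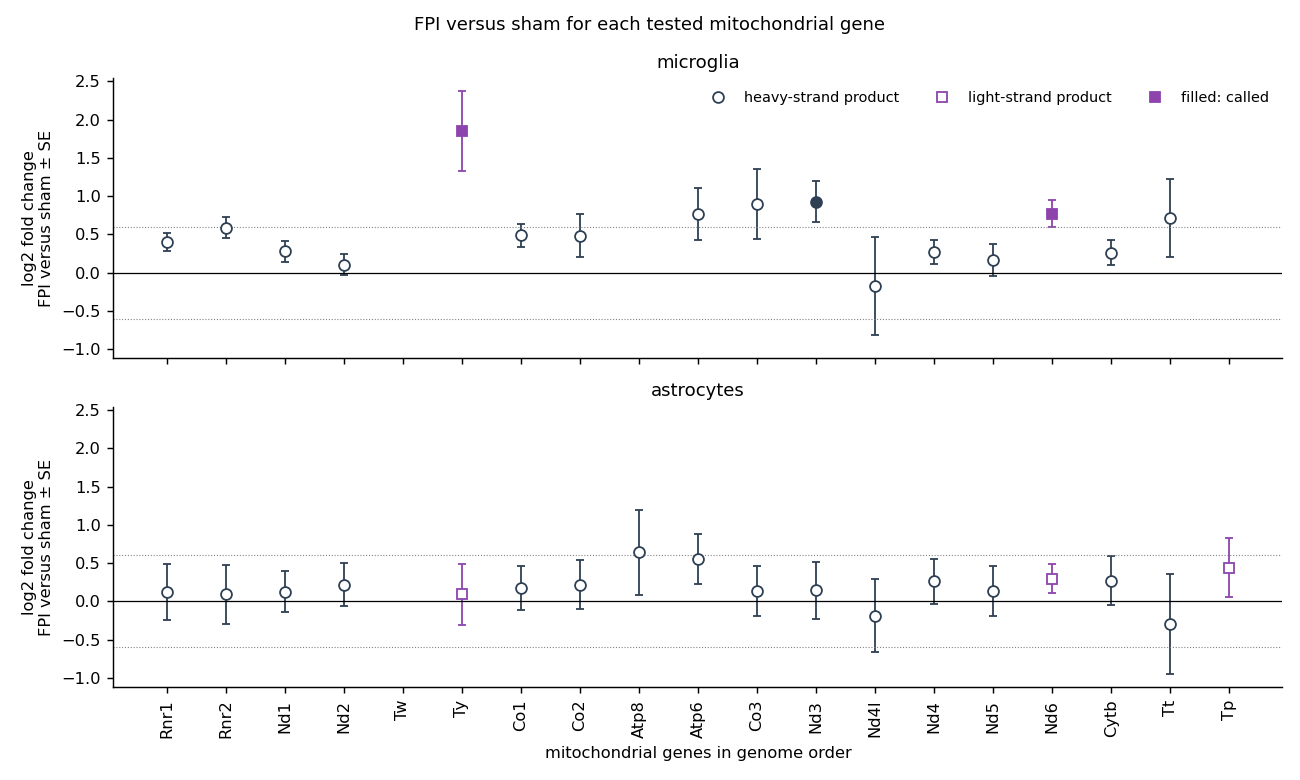
Log2 fold change of FPI versus sham with its SE for each mitochondrial gene tested in microglia (top) and astrocytes (bottom), in genome order; squares are light-strand products, filled symbols are called and dotted lines mark 0.6 on either side of 0. The called genes are mt-Ty (1.85), mt-Nd3 (0.93) and mt-Nd6 (0.77), all in microglia.

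Whether FPI acted differently in microglia and in astrocytes was tested in a fit of all 20 libraries, and no mitochondrial gene passed. At an adjusted p below 0.1 the test called 0 of 19 mitochondrial genes and 0.199% of all 15077 genes, and DESeq2 also called 0. The largest difference was that of mt-Ty (log2 1.77 larger in microglia, SE 0.74), with an unadjusted p of 0.0270 and an adjusted p of 0.620 in edgeR's test. mt-Tp (log2 1.55, SE 0.73) was the only other gene of the 19 with an unadjusted p below 0.05. Over all 15077 genes, 1058 had an unadjusted p below 0.05 in that test. For mt-Nd6 the difference was 0.49 (SE 0.28), for mt-Rnr2 0.50 (SE 0.32) and for mt-Nd3 0.79 (SE 0.48), so a larger effect of FPI in microglia was not shown for these genes.

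Microglia libraries held a smaller mitochondrial share than astrocyte libraries in both conditions. The astrocyte libraries also held oligodendrocyte RNA. Oligodendrocyte markers summed to 17799 CPM beside 9515 CPM for astrocyte markers in sham astrocyte 4, and to 11050 beside 11036 CPM in FPI astrocyte 4. The part of this RNA in the difference was not tested. The mean share was 0.406 of the astrocyte share in sham and 0.524 in FPI libraries, and the highest microglia library, at 8.36%, lay below the lowest astrocyte library, at 9.37%. In the fit of all 20 libraries, averaged over sham and FPI, 17 of 19 mitochondrial genes were called, all lower in microglia, against 37.2% of all genes tested called as lower. The median log2FC was -0.97, beside -0.13 for all 15077 genes. In 3 genes, mt-Rnr1, mt-Nd2 and mt-Nd4, every microglia library lay below every astrocyte library, as in 21.2% of all genes.

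The rRNA genes differed unequally between the cell types. Scaled over all 20 libraries, mt-Rnr1 averaged 9909 ± 518 CPM in sham and 12964 ± 1548 CPM in FPI microglia (SD, n = 5 each), and 36631 ± 7524 and 39052 ± 11821 CPM in sham and FPI astrocytes. Its log2FC of microglia versus astrocytes was -1.74 (SE 0.16, adjusted p = 3.22e-09 by edgeR's quasi-likelihood test). mt-Rnr2 averaged 34165 ± 5107 and 50746 ± 5779.8 CPM in sham and FPI microglia, and 79450.2 ± 10391 and 83234 ± 19852 CPM in sham and FPI astrocytes, a log2FC of -0.97 (SE 0.16, adjusted p = 1.65e-05 by edgeR's quasi-likelihood test). Within a library, mt-Rnr2 had 2.97, 3.53, 3.12, 3.55 and 4.01 counts per mt-Rnr1 count in sham microglia 1 to 5 and 3.50 to 4.14 in FPI microglia. The ratio was 1.94 to 2.39 in sham and 1.96 to 2.40 in FPI astrocytes, so no astrocyte library reached the lowest microglia library.

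All 13 mRNAs were called as lower in microglia in the fit of all 20 libraries, against 37.2% of all genes. The log2FC was -1.11 for mt-Co1 (SE 0.16), -1.15 for mt-Nd4 (SE 0.18), -1.14 for mt-Cytb (SE 0.19), -0.96 for mt-Nd2 (SE 0.16), -0.82 for mt-Nd5 (SE 0.21), -0.73 for mt-Nd1 (SE 0.15) and -0.68 for mt-Nd6 (SE 0.14). The 6 genes inside the copied stretch ran from -0.89 (mt-Atp6) to -1.23 (mt-Atp8). Within FPI libraries alone, mt-Nd6 (log2FC -0.45), mt-Nd3 (-0.60), mt-Co3 (-0.60) and mt-Ty (-0.07) were not called, and 13 of 18 genes were called, all lower, against 32.9% of all genes called as lower in that fit. Within sham libraries alone 16 of 18 were called, all lower, against 33.9% of all genes. mt-Atp8, with 353 counts over all libraries, was not called there (log2FC -0.52). Without FPI astrocyte 1 mt-Nd6 was not called, at -0.59.

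Per kilobase, and scaled over all 20 libraries, the mean levels of the 5 protein genes outside the copied stretch stood in the same order in both sham groups. In sham microglia mt-Cytb had 805 CPM per kb, mt-Nd1 642, mt-Nd5 545, mt-Nd2 353 and mt-Nd6 205. In sham astrocytes they had 1782, 1127, 979, 662 and 388 CPM per kb in the same order. Within libraries, each neighbour in this order was higher than the next in all 10 microglia libraries, except mt-Nd2 above mt-Nd6 in 9. The same held in all 10 astrocyte libraries except for mt-Nd1 and mt-Nd5, where mt-Nd1 was the higher in 5. mt-Co1 and mt-Nd4 lie partly inside the copied stretch and were not placed in the order.

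The tRNAs split. mt-Tp was lower in microglia, with a log2FC of -2.02 (SE 0.37). Scaled over all 20 libraries, it averaged 0.533 ± 0.384 and 2.16 ± 1.34 CPM in sham and FPI microglia. In sham and FPI astrocytes it averaged 3.90 ± 0.966 and 5.18 ± 2.07 CPM on that scale. mt-Ty was called at -0.94 (SE 0.37). mt-Tw (-0.30, SE 0.62) and mt-Tt (-0.05, SE 0.39) were not called, and mt-Tw was called without FPI microglia 1 (-1.25, SE 0.54).

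**Figure D5:**
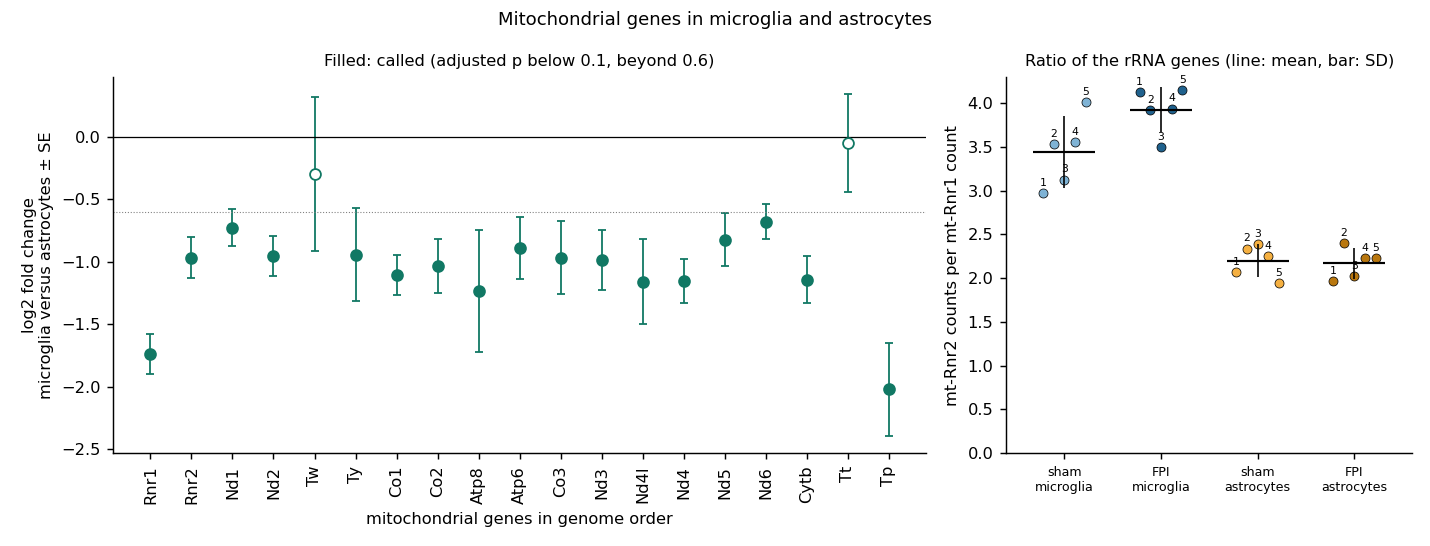
Left, log2 fold change of microglia versus astrocytes with its SE for the 19 mitochondrial genes tested in all 20 libraries, with filled symbols for called genes and a dotted line at -0.6; right, mt-Rnr2 counts per mt-Rnr1 count in each library, with mean and SD. All 17 called genes are negative, mt-Rnr1 is at -1.74 and mt-Rnr2 at -0.97, and the ratio is 2.97 to 4.14 in microglia and 1.94 to 2.40 in astrocytes.

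Other RNAs differed between the cell types as well. All 18 immediate-early and dissociation genes were called as higher in microglia, beside 27.1% of all genes, with a summed level of 3200.2 to 5539 CPM in sham microglia and 329 to 539 CPM in sham astrocytes. All 4 nuclear-retained RNAs tested were called as lower in microglia, beside 37.2% of all genes, and Malat1 had a log2FC of -1.21. Their part in the mitochondrial difference was not tested.

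Nuclear genes that serve the mitochondrial genome were examined as 4 lists, beside 2.35% of all genes called in either direction after FPI in microglia. Over all 12143 genes tested there, 1377 had an unadjusted p below 0.05 in edgeR's test. Of 20 tested genes that transcribe and maintain mitochondrial DNA, 0 were called in microglia after FPI (median log2FC -0.11), and 2 had an unadjusted p below 0.05, 1 in each direction. Of 74 mitochondrial ribosomal proteins 0 were called (median 0.03, 2 at an unadjusted p below 0.05), and of 7 regulators of mitochondrial biogenesis 0 were (median 0.03, 0 at an unadjusted p below 0.05), all by edgeR's test. Of 31 genes of mitochondrial RNA processing and stability 1 was called, as higher. This was Slirp, which binds mitochondrial mRNAs together with Lrpprc and stabilises them, at 1.67 ± 0.741 CPM in sham and 6.82 ± 3.59 CPM in FPI microglia (log2FC 1.99, SE 0.54, adjusted p = 0.0676 by edgeR's quasi-likelihood test). Its sham range of 0.389 to 2.17 CPM and FPI range of 1.88 to 11.3 CPM overlapped, and its call held without FPI microglia 3 (log2FC 2.09) or 4 (2.23) and was lost on leaving out any other library (log2FC 1.73 to 2.09) and with the replicate number as a block (adjusted p = 0.167 in edgeR's test).

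In astrocytes none of these lists had a gene called after FPI (0 of 22, 0 of 30, 0 of 74 and 0 of 9 tested, with 0 at an unadjusted p below 0.05 in each by edgeR's test). Over all 13741 genes tested there, 1 was called and 319 had an unadjusted p below 0.05. Between the cell types, where 37.2% of all genes were called as lower and 27.1% as higher in microglia, 20 of 74 mitochondrial ribosomal proteins were called as lower and 2 as higher, with a median log2FC of -0.41. Of 22 genes of mitochondrial DNA transcription and maintenance 8 were called as higher and 3 as lower in microglia, and of 31 genes of RNA processing and stability 6 were higher and 3 lower. Of 9 regulators of biogenesis, 3 were called as higher and 2 as lower.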

How the data were processed

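The values are the gene counts deposited for each library, whole numbers with no normalization. Per the labels, the authors aligned reads with HISAT2 2.1.0 to mm10 (GRCm38) and counted them with featureCounts, whose strand and multiple-match settings are not given in the sources used here. Libraries were made with a stranded total RNA kit for picogram inputs. The 20 separate count files held the same values as the series table. Groups came from the titles and labels.

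Fits were made in edgeR 4.0.16 (R 4.3.3, limma 3.58.1) for microglia and astrocytes separately, using filterByExpr, TMM factors, the quasi-likelihood test and Benjamini-Hochberg adjustment over all tested genes. A joint fit of all 20 libraries compared the cell types and their responses to FPI. Shares, sums and ratios carry no test. In simulated counts with 200 changed genes, 154 were recovered in microglia (17 false calls, 12143 genes) and 103 in astrocytes (12 false calls, 13741 genes). The recovered numbers are not split by size of change, and recovery at the log2FC of the mitochondrial genes was not tested.

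Identifiers were matched to GENCODE M21 (37693 of 39017), and transcripts were aligned with BLAST 2.17.0 to find nuclear copies of at least 80% identity, of which 28 pseudogenes matched 13 of the mitochondrial genes and 10 were rows of the table. Python 3.11.15, numpy 2.4.6, pandas 2.3.3 and matplotlib 3.10.9 handled tables and plots. Replicates differed by more than sampling noise (chi-square per degree of freedom at least 13.2). Correlations of deviations between same-numbered sham and FPI libraries were near 0 in microglia and above 0.1 in 4 of 5 astrocyte pairs. Since not every pair passed 0.1, the numbers were not taken to pair animals.

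The genes, lists, thresholds and alternatives were chosen with earlier results of these data known. All 37 genes were accounted for; single values were given for protein and rRNA genes and for tRNA genes that were called or best covered, and for listed nuclear genes only where called, with 1 marker gene not reported here. Gm29216, Gm28438 and Gm10222 are named as copies, and Malat1 as the most abundant of its list. Alternatives were DESeq2 1.42.0, other scalings, filters and dispersion settings, a replicate block, other sets of libraries, a term for the name series, other definitions of the share, and leaving out each library in turn.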

Additional observations from a re-analysis of the deposited data

Results flagged for a closer look

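In 9 of 92 groups of 5 libraries, the library at one end stood apart from the rest by more than 0.71 of the group's whole range, the 95% limit of Dixon's test for 5 values, which chance alone passes in about 1 group in 20. FPI astrocyte 1 accounts for 6 of them as the highest of its group. In it mt-Nd2 was at 1418 CPM, mt-Co1 at 6844, mt-Nd4 at 1663, mt-Nd6 at 366 and mt-Cytb at 4591 CPM, and the protein genes took 1.90% of its counts. These measures share the library and are not independent of each other. FPI microglia 2 stood apart for mt-Ty at 23.6 CPM, FPI microglia 4 for mt-Co3 at 19.7 CPM and sham astrocyte 4 for mt-Atp6 at 26.3 CPM.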

How the results depend on the processing

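All 20 libraries fitted together called 121 genes and 0 mitochondrial genes after FPI in microglia, where leaving out single libraries gave 177 to 423 genes and 0 to 4 mitochondrial genes. In astrocytes 9 genes were called with every gene of at least 1 count, 0 with at least 10 counts in every library, 0 with robust empirical Bayes, 39 with DESeq2, 53 with all libraries together, 0 with FPI astrocytes 2 and 5 summed and 0 to 3 without single libraries, and 0 mitochondrial genes in each of these. Between cell types the filter of 10 counts left 4515 genes called. The difference in the effect of FPI was called in 1 gene with that filter, 190 with DESeq2, 69 and 8 on dropping, for animals sampled for both cell types, their astrocyte or their microglia libraries, and 21 to 48 without single libraries, never in a mitochondrial gene.

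The replicate number as a block gave 255 calls in microglia with 3 mitochondrial genes, and 11 in astrocytes with 0, where mt-Ty turned to -0.026. Nothing in the labels pairs the numbers. Deviations of same-numbered libraries correlated at 0.29 to 0.53 in 4 astrocyte pairs, at -0.0049 in the other and at -0.085 to 0.077 in microglia. In astrocytes 3 of 5 libraries, and in microglia 2 of 5, correlated best with their own number.

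The log2 ratio of shares after FPI in microglia was 0.26 for protein genes and 0.30 without mt-Rnr1 and mt-Rnr2, and in astrocytes ran from -0.035 to 0.20 without single libraries. Sham microglia against sham astrocytes gave -0.99 and -1.10 under those definitions. The cause of these shifts was not tested.

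Without single libraries, log2FC of FPI in astrocytes ran from -0.084 to 0.25 (mt-Rnr1), -0.062 to 0.20 (mt-Rnr2), -0.12 to 0.24 (mt-Nd1), -0.12 to 0.33 (mt-Nd2), -0.18 to 0.36 (mt-Ty), -0.089 to 0.30 (mt-Co1), -0.13 to 0.41 (mt-Co2), -0.14 to 0.31 (mt-Co3), -0.065 to 0.42 (mt-Nd3), -0.46 to 0.17 (mt-Nd4l), -0.090 to 0.40 (mt-Nd4), -0.20 to 0.26 (mt-Nd5) and -0.11 to 0.42 (mt-Cytb). Between cell types mt-Tt turned to 0.058 and 0.092 on the same 2 omissions and to 0.44 in FPI libraries alone, and ran from -0.17 to 0.24 without single libraries, and mt-Tw turned to 0.065 without those astrocyte libraries. At this depth 16 of 37 mitochondrial genes could be tested in microglia and 18 in astrocytes.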
